A study of Mus musculus with 2 samples.

Results

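The genes described here make, take up, move and sense cholesterol, and they were compared between the mouse cell lines SVEC4-10 and MS-1 on Affymetrix expression arrays. They form a list of 33 genes: 19 synthesis enzymes, 5 genes of sterol sensing, 3 genes of lipoprotein receptors and their control, and 6 genes of sterol transport, storage and oxidation. A gene was taken where the array annotation assigned at least 1 probe set to it alone, which held for 31 of the 33 and, on the whole array, for 18193 genes. The signals of Acat2 and Soat1 were not analysed here. The SVEC4-10 line derives from an axillary lymph node and was cultured with 10% fetal calf serum, and the MS-1 line derives from small vessels of the pancreas and was cultured with 5%. Both are labelled endothelial, both were grown in DMEM to confluence over 3 to 5 days and used up to passage 5, and each gave 1 array. Each line is a single immortalised line, so it stands for 1 cell source. With 1 array per line, no difference could be set against replicates, so no p-values are given, and line, serum and culture cannot be told apart.

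Cells build cholesterol from acetyl-CoA through mevalonate, isoprenoid diphosphates, squalene and lanosterol. The genes of these enzymes are switched on together when sterols in the endoplasmic reticulum run low: the escort protein Scap then carries the precursors of the transcription factors Srebf1 and Srebf2 (SREBPs) to the Golgi, where proteases free them, while the Insig proteins hold Scap back when sterols are plentiful. Cells also obtain cholesterol from serum lipoproteins through receptors of the low-density lipoprotein receptor family, and SREBPs raise synthesis and uptake together when supply is short.

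The genes of cholesterol synthesis had higher signal in SVEC4-10 cells almost throughout, and the genes that sense, take up and move sterols did not share 1 direction. All 18 measured enzymes had a log2 ratio of SVEC4-10 over MS-1 above 0, against 50.8% of all measured genes. The enzyme median was 1.78, with a range of 0.35 to 3.01. Scaling to control transcripts, which put the median of all measured genes at -0.50, left 16 of the 18 above 0. It turned Mvk and Sc5d to -0.16 and -0.0076. At least 2-fold higher signal in SVEC4-10 cells was found for 15 of the 18 enzymes (83.3%), against 15.2% of all 12454 measured genes. On scaling to the poly-A control transcripts 11 of the 18 were, against 8.50% of all measured genes, and Pmvk, Mvd, Ebp and Hsd17b7 were under 2-fold (0.64 to 0.87 on the log2 scale). With the probe set of smallest ratio taken for each gene the count was 12, against 11.1% of all measured genes, and Hmgcs1, Lss and Hsd17b7 were under 2-fold through probe sets below background on 1 array. Hmgcs1 and Hsd17b7 each also had a probe set above background on both arrays that was under 2-fold (log2 ratios 0.80 and 0.62). In MS-1 cells 0 enzymes were at least 2-fold higher, against 12.0% of all genes. The largest difference of an enzyme was that of Idi1, the isopentenyl diphosphate isomerase, 8.06-fold higher in SVEC4-10 cells. Ch25h, which hydroxylates cholesterol to an oxysterol, was at least 220.1-fold higher in MS-1 cells, and Lrp8, a lipoprotein receptor, was 6.38-fold higher there.

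Signals are the deposited linear intensities, and each array was already scaled to the same trimmed mean of 150.001. Background was a signal of 17.6 for SVEC4-10 and 16.3 for MS-1, and a lower value was raised to it before the ratio was taken, so that such a ratio is a lower bound, written "at least". A gene was measured if its probe set was above background on at least 1 array, which all 31 genes of the list were. The error of a log2 ratio, taken from further probe sets of 4406 genes, was 0.49, and lay between 0.45 and 0.55 when genes were grouped by brightness. It holds no variation between cultures. The poly-A control transcripts added during labelling were 1.43-fold higher in SVEC4-10 cells by the median of 21 probe sets, and scaling to them lowers every log2 ratio by 0.51, that of the median measured gene included.

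The markers of SVEC4-10 went against its endothelial label, and those of MS-1 did not. Of 10 endothelial markers, 1 (Kdr, at 21.9) was above background in SVEC4-10 cells and 10 in MS-1 cells. Emcn, Pecam1, Nos3 and Esam, all defining genes of endothelium, had signals below background in SVEC4-10 cells and of 2739 to 5568 in MS-1 cells. Of 10 mesenchymal markers, 9 were above background in SVEC4-10 cells and 3 in MS-1 cells, led by Dcn, Col1a2, Bgn and Acta2 with signals of 6446 to 7363 in SVEC4-10 cells and up to 48.6 in MS-1 cells. The summed signal of the measured endothelial markers was 116 in SVEC4-10 cells and 26102 in MS-1 cells, and that of the mesenchymal markers was 43713 in SVEC4-10 cells and 153 in MS-1 cells. These differences move with every result below, and their part in them was not tested. Of 8 leukocyte markers, 1 was above background in SVEC4-10 cells and 4 in MS-1 cells, with no signal above 50.7 (Coro1a, Csf1r, Laptm5 and Lyz2). Of 6 markers of hepatocytes and steroid-making cells, which handle sterols in bulk, Star was above background, with signals of 31.9 in SVEC4-10 cells and 37.5 in MS-1 cells, and the other 5 were not. In RNA from whole cultures, fewer cells of a type and less RNA per cell cannot be told apart.

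The first steps lead from acetyl-CoA to the isoprenoid building blocks. Hmgcs1, the cytosolic synthase that makes HMG-CoA, had a signal of 2616 in SVEC4-10 cells and 709 in MS-1 cells, a log2 ratio of 1.88, the highest of its 5 probe sets, all of which gave a higher signal in SVEC4-10 cells. The 4 probe sets of Hmgcs1 above background on both arrays lay between 0.80 and 1.88, and without the less specific probe set classes the log2 ratio of Hmgcs1 was 0.80, under 2-fold. Mvk, mevalonate kinase, had signals of 197 in SVEC4-10 cells and 155 in MS-1 cells, and its log2 ratio of 0.35, which turned to -0.16 on scaling to the poly-A controls, lay within the error. Mvk had the lowest log2 ratio among the enzymes under either scaling. Pmvk, the next kinase, had signals of 215 in SVEC4-10 cells and 82.8 in MS-1 cells (log2 ratio 1.38). Mvd, which decarboxylates mevalonate diphosphate, had signals of 224 in SVEC4-10 cells and 86.3 in MS-1 cells (1.37), and its second probe set was 2.84-fold higher in SVEC4-10 cells. Both kinases and the decarboxylase act in a row on mevalonate, and Pmvk and Mvd were at least 2-fold higher in SVEC4-10 cells.

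Idi1 interconverts the first isoprenoid diphosphates. Its signal was 1729 in SVEC4-10 cells and 215 in MS-1 cells, a log2 ratio of 3.01, and its second probe set gave 3.04. The ratio of Idi1 was exceeded by 2.73% of all measured genes. Fdps, which makes farnesyl diphosphate, had signals of 2889 in SVEC4-10 cells and 758 in MS-1 cells (1.93). Ggps1 takes farnesyl diphosphate out of the sterol route, towards the longer isoprenoid that anchors small GTPases to membranes. Its signals were 267 in SVEC4-10 cells and 177 in MS-1 cells, a log2 ratio of 0.59, and its 4 probe sets lay between 0.43 and 0.96, all under 2-fold. On scaling to the poly-A controls the log2 ratio of Ggps1 was 0.078.

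From squalene onward every enzyme belongs to the sterol branch. Fdft1, squalene synthase, had signals of 1466 in SVEC4-10 cells and 384 in MS-1 cells (log2 ratio 1.93, second probe set 2.04). Sqle, the epoxidase that commits squalene to sterols, had signals of 1971 in SVEC4-10 cells and 451 in MS-1 cells (2.13). Lss, which closes the rings to give lanosterol, had signals of 569 in SVEC4-10 cells and 115 in MS-1 cells (2.31). These enzymes were 3.81- to 4.96-fold higher in SVEC4-10 cells. A second probe set of Lss, the one left without the less specific classes, gave a log2 ratio of 3.48. Another had signals of 21.7 in SVEC4-10 cells and 15.2 in MS-1 cells, below background there, so its log2 ratio is at least 0.42.

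The enzymes that trim and reduce lanosterol followed the same direction. Cyp51, the lanosterol demethylase, had signals of 1461 in SVEC4-10 cells and 367 in MS-1 cells (log2 ratio 1.99), and its 3 probe sets lay between 1.23 and 2.26. Tm7sf2, a sterol reductase, had signals of 140.4 in SVEC4-10 cells and 32.8 in MS-1 cells (2.10). Nsdhl, a sterol dehydrogenase that takes part in demethylation, had signals of 1083 in SVEC4-10 cells and 219.9 in MS-1 cells (2.30). Each of these was about as far apart as Sqle and Lss. Msmo1, the methylsterol monooxygenase, had signals of 2048 in SVEC4-10 cells and 693 in MS-1 cells (1.56), and Dhcr7, a last-step reductase, had 328 in SVEC4-10 cells and 103 in MS-1 cells (1.67). Ebp, the sterol isomerase, had signals of 1324 in SVEC4-10 cells and 580.4 in MS-1 cells (1.19). Over the 11 enzymes from squalene onward the median log2 ratio was 1.93, and over the 7 measured enzymes before it 1.38.

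Hsd17b7 and Sc5d had probe sets that disagreed in ratio. Hsd17b7, a ketosterol reductase, had signals of 148 in SVEC4-10 cells and 66.7 in MS-1 cells (log2 ratio 1.15), and its 3 probe sets above background on both arrays lay between 0.62 and 2.22. The mean over its measured probe sets was 0.98, under 2-fold. The remaining one, at 13.0 in SVEC4-10 cells, below background, and 18.3 in MS-1 cells, was at least 1.04-fold higher in MS-1 cells. Sc5d, a sterol desaturase, had signals of 651 in SVEC4-10 cells and 459 in MS-1 cells for its brightest probe set (0.50). A second probe set of Sc5d gave 303 in SVEC4-10 cells and 34.2 in MS-1 cells (3.15), and another gave 60.0 in SVEC4-10 cells and 17.0 in MS-1 cells (1.82). The brightest probe set of Sc5d thus gave the smallest of its 3 differences. Counted by probe set, 37 of the 38 measured probe sets of enzymes gave higher signal in SVEC4-10 cells (97.4%), against 50.3% of all 23074 measured probe sets, and the exception was the dimmest one of Hsd17b7, a bound against background.

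**Figure D1:**
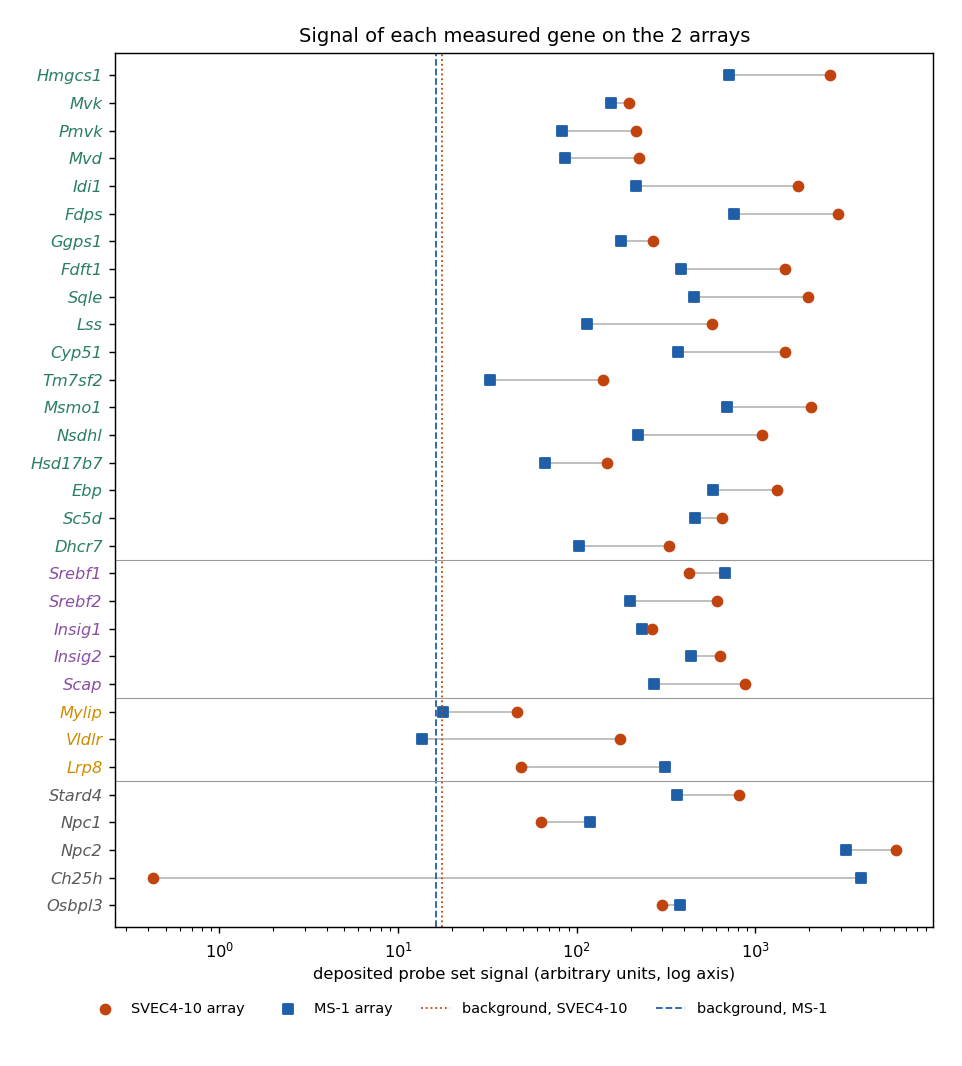
Deposited signal of each of the 31 measured genes in SVEC4-10 cells (circles) and MS-1 cells (squares), on a log axis in arbitrary units, with the background of each array as a vertical line and genes grouped by role. The SVEC4-10 signal lies to the right for all 18 enzymes, while Ch25h, Lrp8, Srebf1, Npc1 and Osbpl3 show the reverse. Signals of different genes are not comparable with each other.

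**Figure D2:**
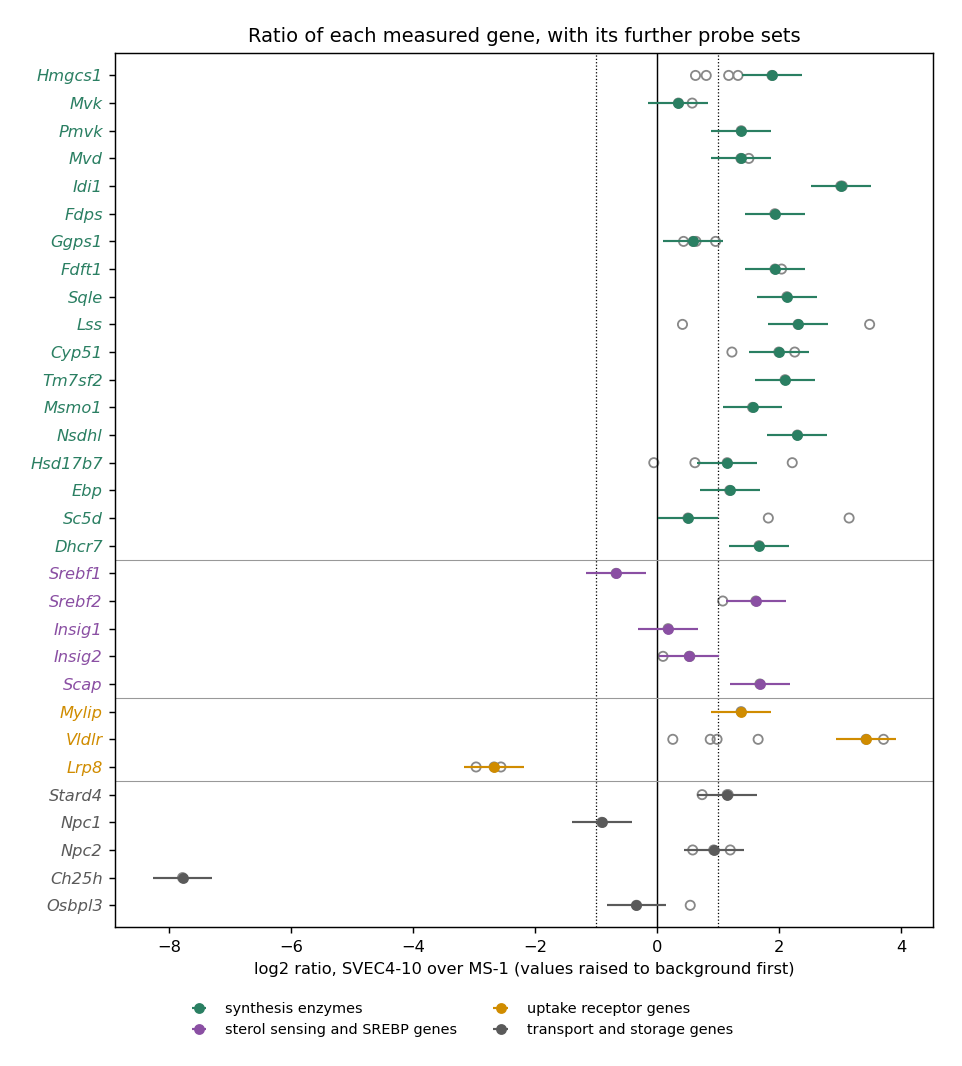
Log2 ratio of SVEC4-10 over MS-1 for the same genes (filled points, bars of ± 0.49 for the error between probe sets of a gene), with the measured probe sets of each gene as open circles and dotted lines at 2-fold. All enzymes lie right of 0, although scaling to the poly-A controls would move every point left by 0.51 and put Mvk and Sc5d below 0. The points of Vldlr and Ch25h are lower bounds, as are the lowest open circles of Hmgcs1, Hsd17b7, Lss and Lrp8 and the 3 lowest of Vldlr.

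SREBPs bind DNA weakly alone and act beside NF-Y, which binds the CCAAT box, and Sp1, which binds the GC box. Because the enzymes shared a direction, the 250 bases before their annotated starts were searched for these letters on both strands, from RefSeq (build GRCm38.p6), which held windows for 28 genes of the list, 15 of them measured enzymes. The letters were CCAAT for the CCAAT box, GGGCGG for the GC box and TCACNCCAC for the sterol regulatory element. Windows are shown for the 3 enzymes with the largest ratios among those in the table, for Hmgcs1, whose window holds the sterol element, and for Ch25h, the gene with the largest opposite difference. All are printed 5′ to 3′ on the strand of the gene, with the matches in capitals (ATTGG and CCGCCC are the CCAAT and GC boxes on the opposite strand). No base was shared by different motifs. Idi1 lies at chr13:8885356-8885605 (plus strand), Lss at chr10:76531355-76531604 (plus), Nsdhl at chrX:72918271-72918520 (plus), Hmgcs1 at chr13:119690101-119690350 (plus) and Ch25h at chr19:34475149-34475398 (minus).
Idi1: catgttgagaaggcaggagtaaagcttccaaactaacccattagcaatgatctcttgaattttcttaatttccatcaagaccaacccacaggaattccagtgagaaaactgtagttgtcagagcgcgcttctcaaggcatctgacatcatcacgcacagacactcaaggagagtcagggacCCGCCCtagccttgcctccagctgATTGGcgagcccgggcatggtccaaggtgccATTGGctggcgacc
Lss: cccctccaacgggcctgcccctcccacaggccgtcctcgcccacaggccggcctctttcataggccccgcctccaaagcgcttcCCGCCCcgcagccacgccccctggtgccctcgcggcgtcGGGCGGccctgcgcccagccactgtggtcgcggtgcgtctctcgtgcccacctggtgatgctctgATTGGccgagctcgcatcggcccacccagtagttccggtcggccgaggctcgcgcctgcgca
Nsdhl: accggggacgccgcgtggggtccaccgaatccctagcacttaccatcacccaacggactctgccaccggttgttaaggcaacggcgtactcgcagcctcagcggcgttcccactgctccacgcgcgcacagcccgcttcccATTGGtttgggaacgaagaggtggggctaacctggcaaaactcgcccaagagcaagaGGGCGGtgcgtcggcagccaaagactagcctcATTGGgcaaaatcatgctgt
Hmgcs1: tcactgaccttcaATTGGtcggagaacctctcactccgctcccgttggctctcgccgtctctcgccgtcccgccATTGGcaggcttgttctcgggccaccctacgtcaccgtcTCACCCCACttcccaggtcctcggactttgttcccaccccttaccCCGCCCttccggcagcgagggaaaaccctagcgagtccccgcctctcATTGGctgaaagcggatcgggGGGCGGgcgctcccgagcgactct
Ch25h: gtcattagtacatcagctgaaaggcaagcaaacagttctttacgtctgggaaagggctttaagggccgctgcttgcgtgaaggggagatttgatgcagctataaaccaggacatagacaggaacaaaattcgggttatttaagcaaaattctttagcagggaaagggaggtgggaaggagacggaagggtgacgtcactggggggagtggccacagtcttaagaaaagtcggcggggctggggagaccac

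A CCAAT box was present before the start of 15 of the 15 measured enzymes with a window, against 40.6% of the 10061 measured genes with one. Genes with several annotated starts were counted if any window held it, and Dhcr7 and Pmvk each had windows with none. Within 100 bases of the start it was present in 14 of the 15 (93.3%), against 2615 of the 10061 measured genes. In Idi1 it stood 45 to 41 and 14 to 10 bases before the start, in Lss 62 to 58, and in Nsdhl 109 to 105 and 20 to 16. The GC box was present in 13 of the 15 enzymes (86.7%), against 63.0% of measured genes. The sterol regulatory element in these letters was present in Hmgcs1 alone among the 28 genes, 137 to 129 bases before the start, against 1.22% of measured genes. The CCAAT box did not separate the enzymes by ratio, since Mvk and Ggps1, both under 2-fold, had it too. Sc5d, under 2-fold by its brightest probe set but not by its others, also had it. Outside the enzymes, 4 of 5 sensing genes, 2 of 3 receptor genes and 3 of 4 transport genes had it. The transport genes with it include Soat1, which was not measured. The windows of Ch25h and Lrp8 had none of the 3 motifs. A match of letters is a description and shows no binding, and a missing match does not show that an element is absent.

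**Figure D3:**
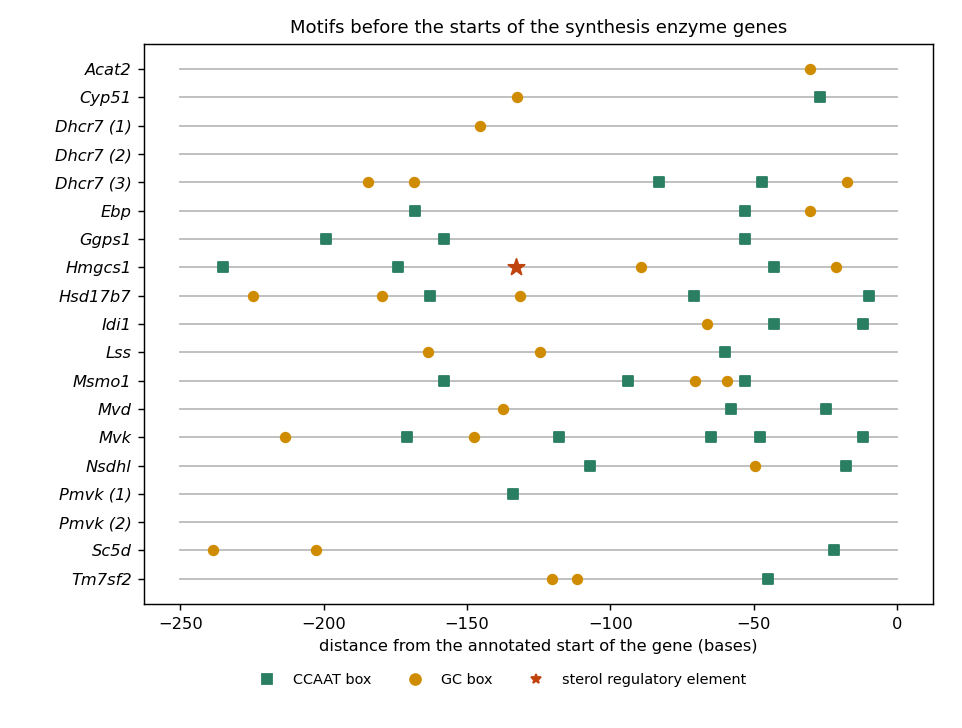
Positions of the CCAAT box (squares), the GC box (circles) and the sterol regulatory element (star) in the 250 bases before each annotated start of the synthesis enzyme genes, in bases from the start; numbers in brackets mark further starts of a gene. Every enzyme shown but Acat2, which was not measured, has a CCAAT box before at least 1 start, and the sterol element appears in Hmgcs1.

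Among the genes of sterol sensing, Srebf2 and Scap were higher in SVEC4-10 cells and Srebf1 was not. Srebf2, the SREBP that mainly drives sterol synthesis, had signals of 612 in SVEC4-10 cells and 199 in MS-1 cells (log2 ratio 1.62), and its second probe set gave 1.08. Scap, the sterol-sensing escort, had signals of 875 in SVEC4-10 cells and 272 in MS-1 cells (1.68). Both passed 2-fold, also when scaled to the poly-A controls. The second probe set of Srebf2, at 1.08, would be under 2-fold once lowered by the 0.51 of that scaling. Srebf1, whose products act more on fatty acid genes, had signals of 424 in SVEC4-10 cells and 675 in MS-1 cells (-0.67). Srebf1 was thus under 2-fold apart, and on scaling to the poly-A controls its ratio was -1.19.

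The Insig genes, whose products retain Scap and are themselves known SREBP targets in the case of Insig1, differed little. Insig1 had signals of 263 in SVEC4-10 cells and 233 in MS-1 cells (log2 ratio 0.18, which scaling to the poly-A controls turned to -0.33). Insig2 had signals of 632 in SVEC4-10 cells and 439 in MS-1 cells (0.53), with 3 probe sets between 0.096 and 0.53. Insig1 was within the error of no difference, and Insig2 exceeded 1 error by little. Over the 5 sensing genes, 2 were at least 2-fold higher in SVEC4-10 cells, 0 in MS-1 cells and 3 in neither. The shares of all measured genes in these directions were 15.2% and 12.0%. The median log2 ratio of the sensing genes was 0.53.

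The receptor genes Vldlr and Lrp8 differed in opposite directions. Vldlr, a receptor for triglyceride-rich lipoproteins and for reelin, had a signal of 175 in SVEC4-10 cells and was below background in MS-1 cells (13.6), at least 10.7-fold higher in SVEC4-10 cells. Its 6 measured probe sets were all higher there, 4 of them by bounds against background in MS-1 cells, the lowest at least 1.19-fold. The brightest, of the cross-hybridising class, had 398 in SVEC4-10 cells and 30.4 in MS-1 cells. Without the less specific classes Vldlr was 3.15-fold higher in SVEC4-10 cells, from signals of 60.5 in SVEC4-10 cells and 19.2 in MS-1 cells, and no longer 4-fold apart. Lrp8, its close relative and also a reelin receptor, had signals of 48.8 in SVEC4-10 cells and 311 in MS-1 cells, a log2 ratio of -2.67. A second probe set of Lrp8 gave -2.56 and another, below background in SVEC4-10 cells, was at least 7.83-fold higher in MS-1 cells, so Vldlr and Lrp8 stood in opposite directions on every measured probe set. Mylip, a ubiquitin ligase induced through the liver X receptors (LXRs) that sends receptors of this family to lysosomes, had signals of 46.1 in SVEC4-10 cells and 17.8 in MS-1 cells (1.38). Both signals of Mylip were low, and its log2 ratio was 0.50 with background doubled and 0.86 on scaling to the poly-A controls.

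Of the transport and storage genes, Stard4 was at least 2-fold higher in SVEC4-10 cells, Ch25h in MS-1 cells and 3 in neither. That is 1 of 5 measured genes in each direction, against 15.2% and 12.0% of all measured genes. The counts thus do not set this group apart. Stard4, a cytosolic sterol carrier and SREBP target, had signals of 807 in SVEC4-10 cells and 364 in MS-1 cells (log2 ratio 1.15), and its 3 probe sets lay between 0.74 and 1.16. On scaling to the poly-A controls the log2 ratio of Stard4 was 0.64. Npc1 and Npc2 hand cholesterol out of the lysosome together. Npc2, the soluble partner, had signals of 6119 in SVEC4-10 cells and 3219 in MS-1 cells (0.93), and Npc1, the membrane partner, had 63.0 in SVEC4-10 cells and 118 in MS-1 cells (-0.91). The partners thus leaned in opposite directions, each by under 2-fold, and scaling to the poly-A controls gave 0.41 for Npc2 and -1.42 for Npc1. Osbpl3, a sterol- and lipid-binding protein, had signals of 301 in SVEC4-10 cells and 381 in MS-1 cells (-0.34), and its second measured probe set gave 0.54.

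Ch25h lay below background in SVEC4-10 cells, at a deposited value of 0.423, and had a signal of 3878 in MS-1 cells. Its enzyme makes an oxysterol that in mouse and human cells blocks SREBP processing through the Insig proteins, and the gene is known in mouse macrophages as one induced by interferon. The log2 ratio of -7.78 is a bound against background, and 0.0321% of measured genes had a lower one. With 1 probe set for the gene, no second value was at hand. Leukocyte markers, given above, stood at 66.8 in SVEC4-10 cells and 145 in MS-1 cells as a summed signal over the measured ones, and their part in the result was not tested. Across the list, 6 of 31 genes (Idi1, Lss, Nsdhl, Sqle, Tm7sf2 and Vldlr) were at least 4-fold higher in SVEC4-10 cells, against 5.65% of all measured genes. In MS-1 cells 2 (Ch25h and Lrp8) were, against 4.24%.

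**Figure D4:**
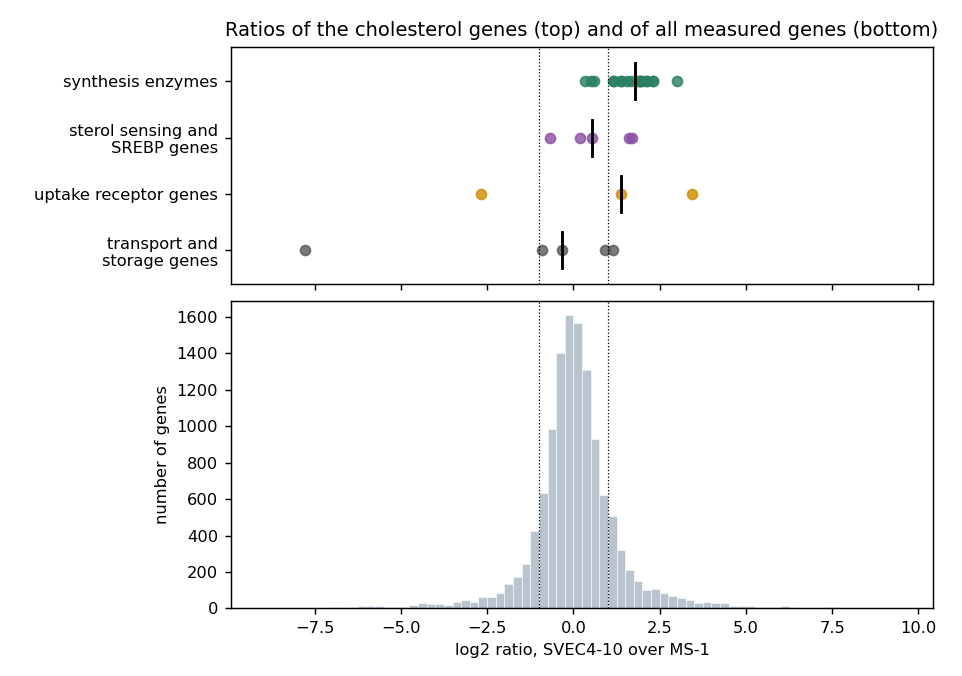
Log2 ratios of SVEC4-10 over MS-1 of the 31 genes by role (top, with each median as a black bar) and the histogram of all 12454 measured genes (bottom), with dotted lines at 2-fold. The enzymes have a median of 1.78, whereas all measured genes centre on 0.015, and the receptor and transport genes spread over both sides. Scaling to the poly-A controls lowers all points by 0.51 and leaves their distances as they are.

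Over the whole list, 20 of the 31 measured genes (64.5%) were at least 2-fold higher in SVEC4-10 cells, against 15.2% of all measured genes. In MS-1 cells 2 were, against 12.0%, and 9 were in neither line. The median log2 ratio of the list was 1.38. On scaling to the poly-A controls 14 were at least 2-fold higher in SVEC4-10 cells, against 8.50% of all measured genes, and 4 in MS-1 cells, against 25.4%. A further 28 genes of cholesterol supply were listed beside them, covering the proteases that release SREBPs, lipoprotein receptors, exporters, LXRs, lysosomal and ester hydrolases and oxysterol enzymes. Of these, 18 had a probe set of their own and 15 were measured, of which 3 were at least 2-fold higher in SVEC4-10 cells, 1 in MS-1 cells and 11 in neither, against 15.2% and 12.0% of all measured genes in these directions. Their median log2 ratio of 0.15 was close to that of all measured genes, and it was -0.36 when scaled to the poly-A controls. Lrp1, a large endocytic receptor of the same receptor family, had signals of 499 in SVEC4-10 cells and 82.3 in MS-1 cells (2.60). The cholesterol exporters differed in opposite directions: Abca1 had signals of 359 in SVEC4-10 cells and 115 in MS-1 cells (1.64), and Abcg1, which loads lipoproteins, was below background in SVEC4-10 cells and had 453 in MS-1 cells, at least 25.7-fold higher there. The second measured probe set of Abcg1 was also below background in SVEC4-10 cells. Stard5, a sterol carrier, had signals of 211 in SVEC4-10 cells and 80.9 in MS-1 cells (1.39, and 0.44 at its lowest probe set), and Osbpl2, a lipid transfer protein, had 583 in SVEC4-10 cells and 310.0 in MS-1 cells (0.91).

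**Figure D5:**
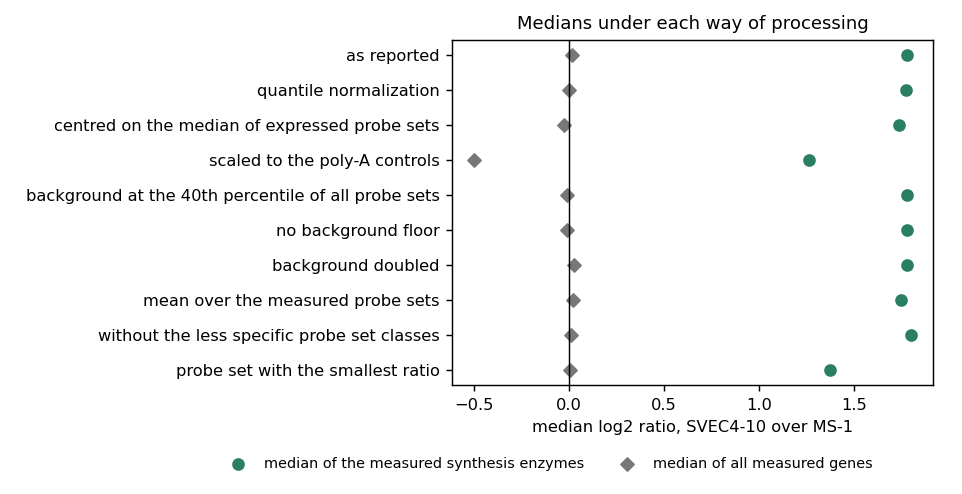
Median log2 ratio of SVEC4-10 over MS-1 of the measured synthesis enzymes (circles) and of all measured genes (diamonds) as reported and under each alternative processing. The enzyme median lies between 1.26 and 1.80 in every setting, and scaling to the poly-A controls lowers both medians by 0.51.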

How the data were processed

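Total RNA for 1 array per line was labelled as biotinylated cRNA from 6 µg for Affymetrix arrays, per the labels' protocols. The authors deposited linear intensities, 1 for each probe set on each array. How they were summarised is not given in the sources used here. Their 2%-trimmed mean was 150.001 on each array, and no further scaling was applied. The number of arrays limits the precision.

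The platform annotation gave 1 gene for 34945 of 45101 probe sets (34741 matched by identifier to RefSeq, assembly GRCm38.p6), several for 932 and none for 9160, and 64 were controls. As background served the 95th percentile of 129 probe sets for genes of smell, taste and hair keratin-associated proteins. Each gene was represented by its probe set of highest mean log2 intensity, with the cross-hybridising class used only where no other existed. The error compares the log2 ratios of the 2 brightest probe sets of each gene: the root mean square of their difference over the square root of 2. Differences were counted by size, since 1 array a line allows no test. Every member was named, with up to 5 further pathway genes by absolute ratio and up to 4 markers a list by signal. The steps were tested on simulated data. The members, lists and motifs were chosen with earlier results of these data known. The 10 alternatives concern scaling, background, choice of probe set and threshold. Python 3.11.15, numpy 2.4.6 and pandas 2.3.3 were used.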

Additional observations from a re-analysis of the deposited data

How the results depend on the processing

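No paired analysis was possible because each line has 1 array. Scaling was varied by quantile normalization, by centring expressed probe sets on their median and by use of the poly-A controls. Background was set at the 40th percentile of the array, doubled, or not applied, genes were represented by a mean, by specific probe sets only or by their smallest ratio, and 4-fold replaced 2-fold. The enzyme median stayed above that of all measured genes in each setting that gives a median. Scaling to the poly-A controls moves the median of all measured genes to -0.50. The median log2 ratios were then 0.86 for all members, 1.26 for the enzymes and 0.015 for the sensing genes. They were 0.86 for the receptor genes and -0.85 for the transport genes. In that setting 4 members were at least 2-fold higher in MS-1 cells, against 25.4% of all measured genes. With background doubled the receptor median was 0.50. The receptor list includes Mylip, which is no receptor, and its median was the value of Mylip in both these settings. Without the less specific classes the sensing median was 1.07, over 4 genes. With the probe set of smallest ratio the medians were 0.74 for all members and 0.26 for the receptor genes, and Hsd17b7 turned to -0.055, a bound against background. The 4-fold threshold left 6 members higher in SVEC4-10 cells and 2 in MS-1 cells, against 5.65% and 4.24% of all measured genes. For the 22 members at least 2-fold apart, 158 recomputed ratios moved by less than the error of 0.49, 37 moved by more without changing sign, and 1 changed sign. This tally does not measure stability, since many of these ratios could not move. A change of background leaves a gene well above it on both arrays as it was. A gene with 1 measured probe set keeps its ratio whichever probe set is chosen. Scaling to the poly-A controls shifts every ratio by 0.51, just over the error. Low signal limits Mylip, Vldlr in MS-1 cells and the dim probe sets of Lss and Hsd17b7, and culture-to-culture variation was not measured.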

Other observations

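Fatty acid genes that SREBPs also regulate lay on both sides of 0, at shares near those of all measured genes. Of 15 listed and measured genes, 3 were at least 2-fold higher in SVEC4-10 cells, 2 in MS-1 cells and 10 in neither, against 15.2% and 12.0% of all measured genes in these directions, with a median log2 ratio of -0.023, and of -0.54 when scaled to the poly-A controls. The following were named after their values were seen. Acss2, which makes acetyl-CoA from acetate, had signals of 146 in SVEC4-10 cells and 37.5 in MS-1 cells (log2 ratio 1.96), Fads2, a fatty acid desaturase, had 1595 in SVEC4-10 cells and 640.3 in MS-1 cells (1.32), and Elovl6, an elongase, had 305 in SVEC4-10 cells and 146 in MS-1 cells (1.06, and 0.17 at its second probe set). Fasn, the fatty acid synthase, had signals of 753 in SVEC4-10 cells and 1709 in MS-1 cells (-1.18), and Lpin1, a phosphatidate phosphatase, had 56.5 in SVEC4-10 cells and 211 in MS-1 cells (-1.90). Acly, which supplies acetyl-CoA to both the sterol and the fatty acid routes, had signals of 1465 in SVEC4-10 cells and 1464 in MS-1 cells.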
